A study of Mus musculus with 4 samples.

Results

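Src family kinases are membrane-anchored tyrosine kinases that act at the first step behind many immune receptors, and Csk is the kinase that keeps them switched off. The 6 genes described are the kinases Yes1, Src, Fyn, Fgr and Lyn and their inhibitor Csk, among 11065 named mouse genes with a signal past a fixed limit. They were chosen by gene symbol, with earlier results of the same arrays in view. Because the members were selected on a view of these values, the low Yes1 signal of the KO among them, their differences are a description and support nothing further. The annotation names a single probe set for each of 5 members, and all 5 were past the limit and also past a stricter one of 6.91. Yes1 lies on chromosome 5, Src on 2, Fgr on 4, Fyn on 10 and Csk on 9, the chromosome that also carries Xcr1. Lyn, the main Src family kinase of B cells and of many myeloid cells, is not analysed here.

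Gene expression was measured on 4 microarrays of mouse type 1 conventional dendritic cells (cDC1), the dendritic cell subset that cross-presents antigen to CD8 T cells. XCR1-deficient cells (KO) with LPS and XCL1, KO cells with LPS, wild-type (WT) cells with LPS and XCL1, and WT cells with LPS had 1 array each. All came from C57BL/6 mice aged 10 weeks and labelled female, and all had received LPS, a ligand of Toll-like receptor 4, at 100 ng/ml. XCL1, the chemokine that binds XCR1, was the recombinant mouse protein at 100 ng/ml, and no group without LPS was analysed here. How the XCR1 deficiency was made, whether animals were pooled and how long the cells were treated is not stated in the labels.

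In resting cells a Src family kinase is folded shut by its own phosphorylated tail tyrosine, which Csk phosphorylates and phosphatases such as CD45 remove. Once open, the kinases phosphorylate tyrosines in the ITAM motifs of activating receptors, which recruit Syk, and in the ITIM motifs of inhibitory receptors, which recruit the phosphatases SHP-1 and SHIP-1. Myeloid cells use them behind Fc receptors, C-type lectins and integrins, where Fgr and Lyn are members typical of these cells and Src, Fyn and Yes1 are made in many tissues.

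Promoter windows are shown for Yes1 and Fgr, the members that differed most between arrays, and for Fyn, the member with the highest KO values relative to WT. Each window is the 250 bases before the start site in the RefSeq table of GRCm38.p6, on the plus strand, with each CpG in capitals. Those of Yes1, Fgr and Fyn lie at chr5:32610921-32611170, chr4:132973845-132974094 and chr10:39369549-39369798.
Yes1: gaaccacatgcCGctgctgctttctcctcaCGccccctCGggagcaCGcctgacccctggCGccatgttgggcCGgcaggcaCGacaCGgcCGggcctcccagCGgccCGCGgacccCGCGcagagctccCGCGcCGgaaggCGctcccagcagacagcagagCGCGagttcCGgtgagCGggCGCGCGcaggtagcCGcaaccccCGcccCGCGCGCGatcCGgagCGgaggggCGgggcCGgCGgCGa
Fgr: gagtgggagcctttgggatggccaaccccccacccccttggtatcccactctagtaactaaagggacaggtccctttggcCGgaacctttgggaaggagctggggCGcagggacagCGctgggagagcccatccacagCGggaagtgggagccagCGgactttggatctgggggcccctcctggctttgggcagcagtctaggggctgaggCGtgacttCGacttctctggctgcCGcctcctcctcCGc
Fyn: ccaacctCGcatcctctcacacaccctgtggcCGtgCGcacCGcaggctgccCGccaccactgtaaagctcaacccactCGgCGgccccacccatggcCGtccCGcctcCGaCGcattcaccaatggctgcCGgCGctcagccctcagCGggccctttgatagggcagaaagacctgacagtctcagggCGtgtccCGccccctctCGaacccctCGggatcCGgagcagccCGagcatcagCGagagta
The Yes1 window holds 37 CpGs, against a median of 6 over 32526 windows of the same length, and 2.23% of windows hold at least as many. Its GC content is 77.2%, against 67.2% in the Fyn window, 64.4% in the Fgr window and a median of 52.4% over all windows. The Src window holds 40, the Fyn window 21 and the Fgr window 9, and the windows of the 2 Csk start sites hold 7 and 16. Motifs were searched on both strands as plain letters, and a match is a description of these letters only. The GC box GGGCGG, found in 33.0% of all windows, occurs 2 times in the Yes1 window, at 1 place each in the Src and Fyn windows, and 0 times in the windows of Fgr and Csk. The ETS core GGAA, found in 93.4% of windows, occurs 2 times in Yes1, 3 times in Fgr, 1 time in Src and 0 times in Fyn. The Csk windows hold it 6 and 3 times. CCAAT, in 33.8% of windows, occurs in the Fyn window alone among the members' windows. The interferon-response letters GAAANNGAA, in 7.15% of windows, occur in none of them. Matches of different motifs can share letters, and the table held windows for 5 of the 6 members.

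The values are log2 RMA signals, and a difference of 1 between 2 arrays is a doubling of the signal. A call of higher or lower needs a difference of at least 1.5-fold between single arrays, which is 0.58 on the log2 scale. With 1 array in each group there is no error within a group and no replicate check, no test was run, and the number of arrays limits the precision. The signal limit of 5.43 is the median of all values and is not a measured background. Correlations between arrays ran from 0.983 to 0.993 across genes, which are not independent replicates. Xcr1 itself gave 5.11 with LPS and XCL1 and 5.54 with LPS in the KO, against 7.19 and 6.42 in WT, the direction that the genotype labels give. The array names carry 2 prefixes, and 0 of them are shared by the genotypes, and a batch that these prefixes may mark cannot be told apart from genotype. Xist, the RNA of the inactive X chromosome, gave 4.57 and 4.64 in the KO, against 7.91 and 7.95 in WT. The Y-linked genes Eif2s3y and Uty gave 8.27 to 8.89 on all 4 arrays, although every sample is labelled female. A difference in sex composition and genotype cannot be told apart either, and each genotype difference below rests on these arrays.

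Yes1, a broadly expressed kinase closely related to Src, was the member with the largest range over the arrays, at 1.12. Its signal was 6.60 in KO cells with LPS and XCL1 and 6.52 in KO cells with LPS, against 7.64 and 7.36 in the corresponding WT cells. Both KO arrays lay below both WT arrays, with a gap of 0.77 between the nearest values, and the 2 arrays of a genotype lay closer together than that. Yes1 was 2.06-fold lower in the KO with LPS and XCL1 (log2 difference -1.04) and 1.79-fold lower with LPS (-0.84). With LPS and XCL1, 13 of 11065 genes were at least as low relative to WT, Yes1 included, and with LPS 21 were. Counted by the smaller of both differences, 7 genes, Yes1 included, were at least as low in both pairs.

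Src, the founding member of the family, had the smallest range over the arrays among the members, at 0.22. It gave 7.89 and 7.83 in the KO with LPS and XCL1 and with LPS, against 8.01 and 7.79 in WT, and the genotypes overlapped. The KO minus WT differences were -0.12 and 0.04, with opposite signs, and 85.6% of genes differed by at least as much as the LPS value in either direction.

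Fyn, which acts behind antigen receptors and integrins in lymphocytes and in many other cells, was slightly higher in the KO. Its signals of 9.04 and 9.03 in the KO stood above the 8.83 and 8.74 of WT. The differences were 0.21 with LPS and XCL1 and 0.28 with LPS, below the threshold, and 37.9% and 20.0% of genes differed by at least as much in either direction. KO and WT arrays of Yes1 and Fyn did not overlap, which makes 2 of 5 members, and 52.1% of all genes showed such a separation in one direction or the other.

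Fgr, the member restricted mainly to myeloid cells, was low on a single array. It gave 7.22 with LPS and XCL1 and 6.70 with LPS in the KO, against 7.05 and 7.39 in WT, and the genotypes overlapped. With LPS it was 1.61-fold lower in the KO (-0.69), and 51 of 11065 genes, Fgr included, were at least as low. With LPS and XCL1 it was 0.17 above WT, so the lower value was not found in the other pair, which shares no array with this one. Among the members' genotype differences, -0.69 for Fgr was the one just past the threshold and 0.28 for Fyn the one just short of it.

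Csk, the inhibitory kinase, gave 7.58 and 7.49 in the KO with LPS and XCL1 and with LPS, against 7.72 and 7.56 in WT. The genotypes overlapped, and the differences were -0.14 and -0.07, which 56.2% and 73.6% of genes matched or passed in either direction. Subtracting the gene median from an array, called centring here, adds 0.10 to every KO minus WT difference. Relative to that shift Csk was at -0.03 with LPS and XCL1 and at 0.03 with LPS, where its direction turned. The medians over all genes turned too, from -0.04 and -0.05 to 0.06 and 0.05 in the same order. The centred values were -0.94 and -0.74 for Yes1, -0.015 and 0.14 for Src, 0.32 and 0.39 for Fyn, and 0.28 and -0.59 for Fgr, each in the same order of treatments, and none of these turned its direction.

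**Figure D1:**
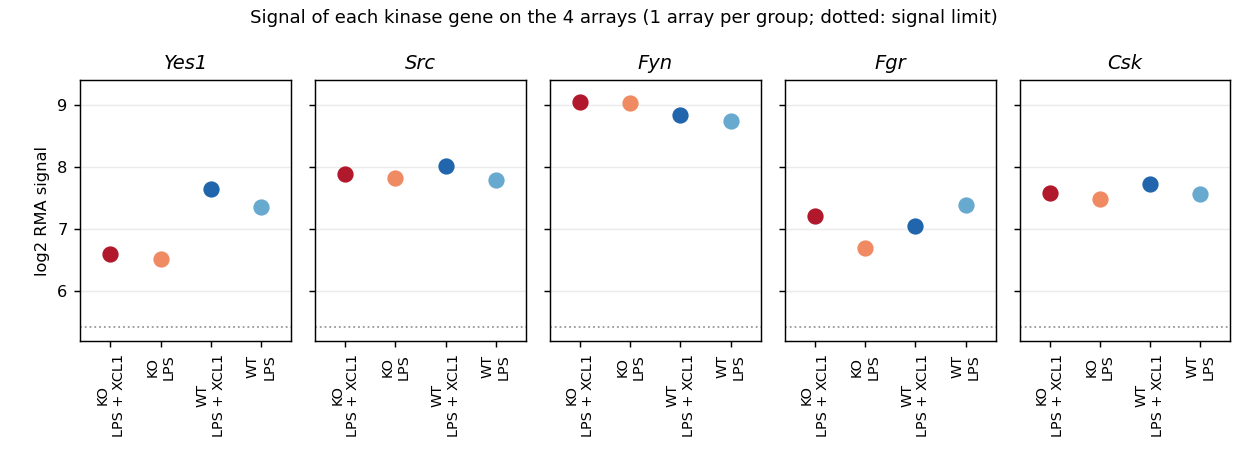
Log2 RMA signal of Yes1, Src, Fyn, Fgr and Csk on each of the 4 arrays, with 1 point per array, KO arrays to the left of WT arrays and the signal limit of 5.43 as a dotted line. Yes1 lies at 6.60 and 6.52 on the KO arrays, below 7.64 and 7.36 on the WT arrays, and Fgr is lowest on the KO array with LPS, at 6.70.

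Set against all genes, Yes1 passed the threshold in both pairs, Fgr in 1, and Src, Fyn and Csk in neither. With LPS and XCL1, 1 of 5 members was called, Yes1, beside 3.45% of all genes in either direction and 1.79% lower. With LPS, 2 of 5 were called, Yes1 and Fgr, both lower, beside 2.0% in either direction and 0.994% lower. Yes1 was the 1 member called in both pairs, as were 0.696% of all genes, and 0.289% of all genes were lower in both. The members were chosen with these values known, so nothing is read from the counts. The median over the 5 members was -0.12 with LPS and XCL1 and -0.07 with LPS, and the medians over all genes were -0.04 and -0.05. In each pair 2 members were above 0 and 3 below, or 3 above and 2 below with LPS after centring.

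Over all genes, the KO had 184 higher and 198 lower calls with LPS and XCL1, and 111 and 110 with LPS. When arrays were centred, these splits became 336 higher and 90 lower with LPS and XCL1, and 201 and 51 with LPS. In both pairs 45 were higher and 32 lower, or 77 and 16 with centring. The members called were Yes1 and Fgr in the LPS pair and Yes1 in the other with centring too. After centring the medians over all genes were 0.06 with LPS and XCL1 and 0.05 with LPS.

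**Figure D2:**
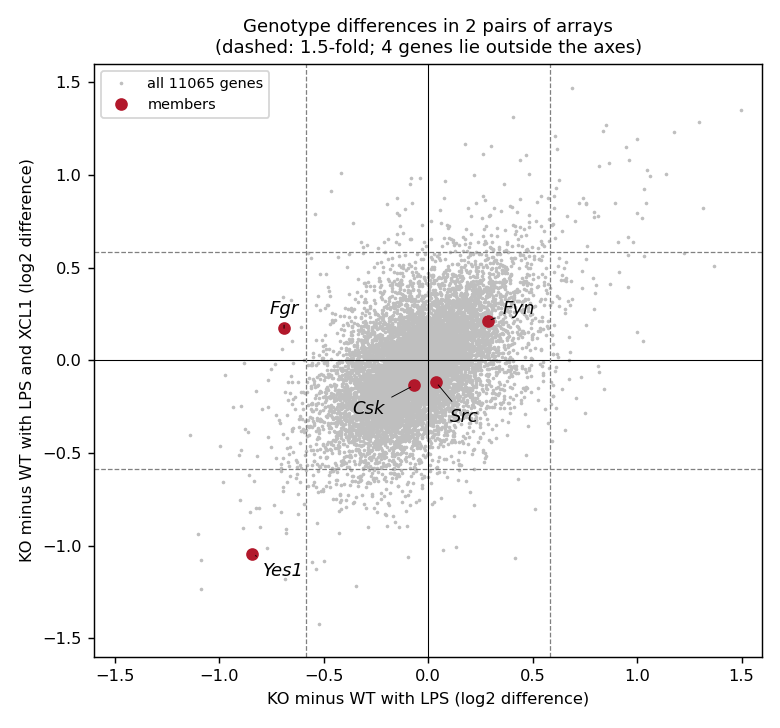
KO minus WT log2 difference with LPS (horizontal) and with LPS and XCL1 (vertical) for 11065 genes (grey) and the 5 members (red), with dashed lines at 1.5-fold and 4 genes outside the axes. Yes1 lies past both lower lines at -0.84 and -1.04, Fgr past 1 of them at -0.69 and 0.17, and Src, Fyn and Csk lie within the lines.

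Adding XCL1 to LPS moved no member by 1.5-fold in either genotype. In KO cells, labelled as lacking the receptor, 0 of 5 members were called beside 1.01% of all genes, and in WT cells 0 of 5 beside 0.56%. Yes1 differed by 0.08 in the KO and by 0.28 in WT, and 10.9% of genes differed by at least as much as the WT value in either direction. Src differed by 0.06 in the KO, or by -0.0043 with centring or quantile normalization, and by 0.22 in WT. Fyn differed by 0.01 in the KO, or by -0.05 to -0.024 with centring, cyclic loess and quantile normalization, and by 0.09 in WT. Csk differed by 0.09 in the KO and by 0.16 in WT, so that the largest XCL1 difference among these 4 genes was the 1.21-fold of Yes1 in WT.

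Fgr was the member with the largest XCL1 differences, and their signs were opposite. It was 1.44-fold higher with XCL1 in the KO (0.52) and 1.27-fold lower with XCL1 in WT (-0.34). In the KO 1.64% of genes differed by at least as much in either direction, and in WT 6.15%. The WT effect minus the KO effect was -0.86, and 1 of 5 members passed 1.5-fold by this measure beside 2.9% of all genes. This value combines 4 arrays and was not tested, and it shares its arrays with the genotype differences of Fgr. For the other members it was 0.20 (Yes1), 0.15 (Src), 0.07 (Fyn) and 0.07 (Csk).

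**Figure D3:**
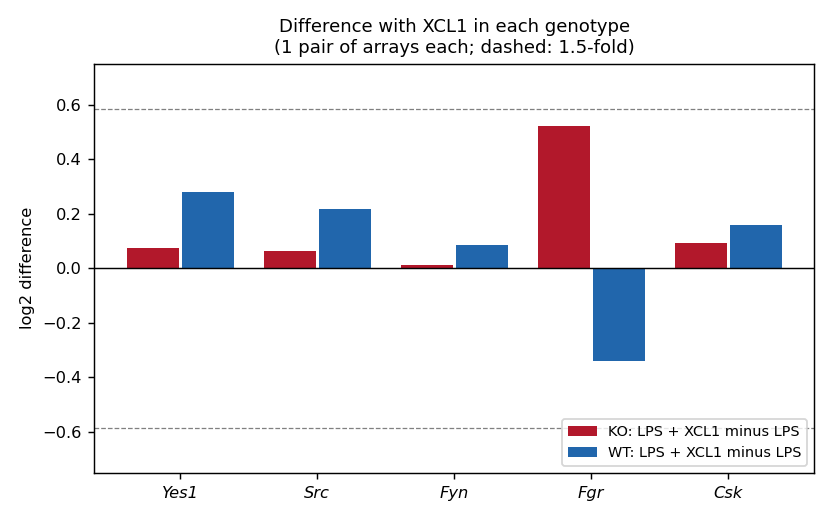
Log2 difference between LPS with XCL1 and LPS alone for each member, in KO cells (red, left bar) and WT cells (blue, right bar), each from 1 pair of arrays, with dashed lines at 1.5-fold. All bars lie within 1.5-fold, and Fgr has opposite signs, at 0.52 in the KO and -0.34 in WT, while the small KO values of Src (centring, quantile normalization) and Fyn (these and cyclic loess) turn below 0 with other scalings.

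Blk, another Src family kinase of B cells, gave 6.37 and 6.39 in the KO with LPS and XCL1 and with LPS, against 6.74 and 6.75 in WT. The differences were -0.37 and -0.36, below the threshold. Of the distant relatives Frk, Srms and Ptk6, only Srms passed the limit, with differences of 0.14 and 0.33.

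The 94 other genes of the pathway were taken from lists made with earlier results of these arrays known, and 75 of them were past the limit. With LPS and XCL1, 2 were higher in the KO, Fcgr1 and Fcgr4, and 2 lower, Clec7a and Skap1. These were 5.33%, beside 3.45% of all genes. With LPS, 1 was higher, Fcgr1, and 0 were lower, which was 1.33%, beside 2.0% of all genes. In both pairs this was 1 of 75 genes, or 1.33%, beside 0.696% of all genes. No gene of the lists was called for XCL1 in either genotype, beside 1.01% of all genes in the KO and 0.56% in WT. The median difference was -0.07 with LPS and XCL1 and -0.09 with LPS, beside -0.04 and -0.05 over all genes.

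In the list of genes taken as negative regulators of Src kinases, 0 of 11 past the limit were called in any comparison. Csk, a member, is among these 11. Ptpn22, a phosphatase that partners Csk, gave 7.66 and 7.49 in the KO, against 8.03 and 7.91 in WT, a difference of -0.37 with LPS and XCL1 and -0.42 with LPS. Pag1, the membrane anchor of Csk, differed by -0.19 and -0.35. Of the 5 phosphatases able to remove the tail phosphate, 0 were called, with Ptprc, which encodes CD45, at 0.21 and -0.02 and Ptpre at -0.17 and 0.07.

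ITAM adaptors and the receptors that signal through an ITAM included the pathway gene with the largest genotype differences. Fcgr1, the high-affinity IgG receptor, which pairs with the adaptor Fcer1g, gave 9.26 and 9.06 in the KO, against 8.06 and 8.06 in WT, so that both KO arrays were higher (1.19 and 1.00). Of 9 genes past the limit, 2 were called higher and 1 lower with LPS and XCL1, beside 3.45% of all genes. With LPS, 1 was called higher, beside 2.0% of all genes. Fcgr4, another activating IgG receptor (0.72), was also higher with LPS and XCL1, and Clec7a, the beta-glucan receptor dectin-1 (-0.62), was lower. Named after their values were seen, these 2 differed by 0.48 and -0.14 with LPS, and Clec7a with LPS and XCL1 was within 1.5-fold with centring. In the list of inhibitory receptors with ITIM motifs, 0 of 10 genes past the limit were called, with the inhibitory receptor Cd300a at 0.22 and 0.43. Siglech, at -0.57 and -0.52, stands in that list although it has no ITIM and signals through the ITAM adaptor DAP12.

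Integrins and the adhesion genes that Src kinases phosphorylate held 1 call among 15 genes, with LPS and XCL1. Over all genes 3.45% were called in that pair. Skap1, an adaptor of Fyn in T cells, gave 5.46 with LPS and XCL1 and 5.74 with LPS in the KO, against 6.05 and 5.80 in WT (-0.59 and -0.06), with signals near the limit. With centring it was within 1.5-fold, and Itgam, which encodes CD11b and was named after its values were seen, was higher with LPS and XCL1. Itgax, which encodes CD11c, differed by -0.34 and -0.32. Of 24 kinases and effectors downstream, 0 were called in either pair, with Inpp5d, which encodes SHIP-1, at -0.37 and -0.40 and the PI3-kinase adaptor Pik3ap1 at 0.44 and 0.36. Of these 24, 15 were below 0 with LPS and XCL1 and 19 with LPS. The centred medians were 0.02 and -0.06, beside 0.06 and 0.05 over all genes.

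**Figure D4:**
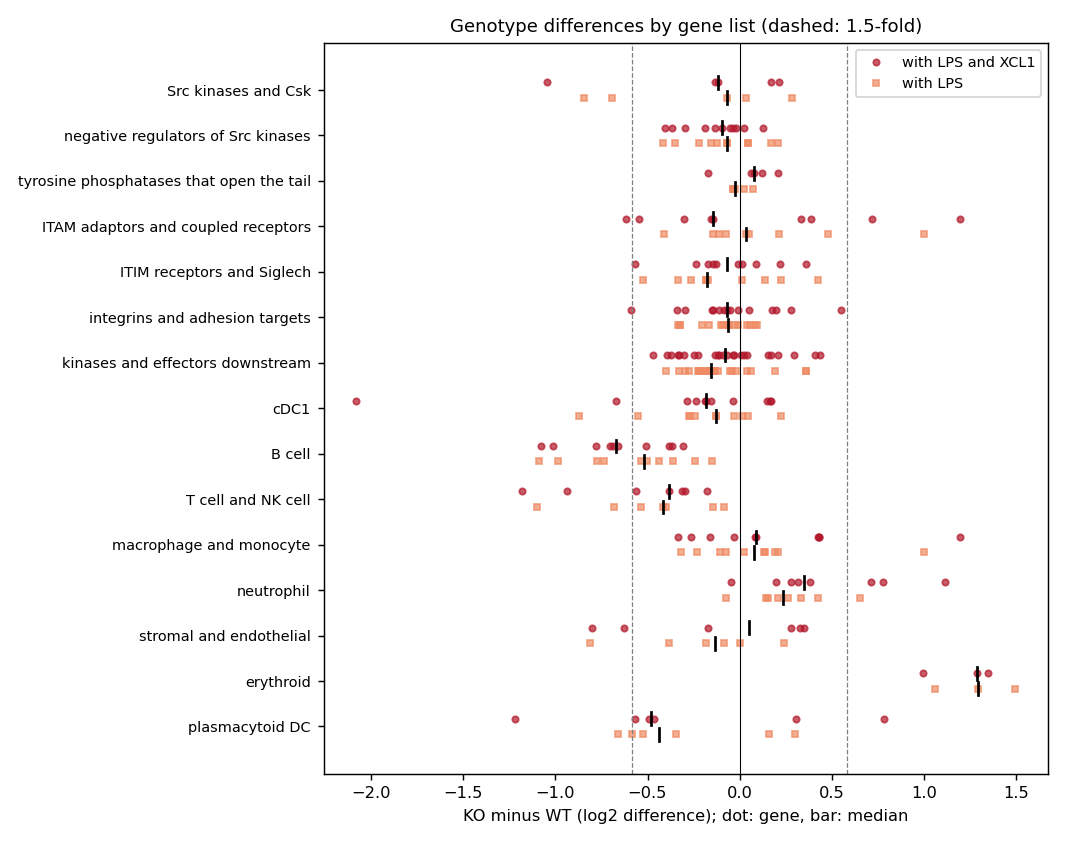
KO minus WT log2 difference of each gene past the limit, by list, with LPS and XCL1 (circles) and with LPS (squares). The lists of other Src family kinases and of distant relatives are not drawn. Black bars mark the list medians and dashed lines mark 1.5-fold. Most pathway genes lie between the lines, while medians of the B cell list lie at -0.67 and -0.52 and those of the erythroid list at 1.29 and 1.29.

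Markers of other cell types differed between the genotypes on the same arrays as Yes1. Of 10 B cell markers past the limit among 11 listed, 10 were below 0 in both pairs, and 6 were called lower with LPS and XCL1 and 4 with LPS. Over all genes 1.79% and 0.994% were called lower. The median of the 10 markers was -0.67 with LPS and XCL1 and -0.52 with LPS, beside -0.04 and -0.05 over all genes. With centring, 4 of the 10 markers were called lower in each pair. The mean log2 signals of the 10 were 7.47 and 7.48 in the KO, against 8.12 and 8.06 in WT. Cd79b, a subunit of the B cell receptor, differed by -1.01 and -0.77, the IgE receptor gene Fcer2a by -1.08 and -1.09, the complement receptor gene Cr2 by -0.66 and -0.98, and the IgM receptor gene Fcmr by -0.78 and -0.74. With centring, 3 of these 4 were called in both pairs. In bulk samples, fewer cells of a type and less RNA per cell cannot be told apart.

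T cell and NK cell markers were lower as well, with all 7 past the limit among 11 listed below 0 in both pairs. Their median was -0.38 with LPS and XCL1 and -0.42 with LPS, beside -0.04 and -0.05 over all genes. Cd247 and Lck are not analysed here, and Trat1 and Klrb1c were below the limit on every array. The mean of the 7 was 6.19 and 6.29 in the KO, against 6.74 and 6.77 in WT. Cd3e and Cd3g, subunits of the T cell receptor complex, were called lower in both pairs, or Cd3g alone with centring, at -1.18 and -0.68 for Cd3e and at -0.94 and -1.10 for Cd3g. Over all genes 0.289% were called lower in both pairs.

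Myeloid, erythroid and stromal lists differed in other ways. Neutrophil markers, 8 of 9 past the limit, had means of 7.47 and 7.32 in the KO, against at most 7.06 in WT, with S100a8 at 1.11 and 0.26 and S100a9 at 0.71 and 0.33. In each pair 7 of these 8 were above 0 and 1 below. With LPS and XCL1, 3 were called higher, and with LPS 1 was, also with centring. Over all genes 1.66% and 1.0% were called higher, without centring. Of the 8 markers, 0 were called in both pairs. Ly6g, which defines neutrophils, was below the limit on every array. Macrophage and monocyte markers, 10 of 11, had means of 7.89 and 7.84 against 7.71 and 7.75. In each pair 6 of these 10 were above 0 and 4 below. Fcgr1, which is in this list too, was the 1 called, at 1.19 and 1.00. The 3 erythroid markers past the limit of 7 listed, Slc4a1, Car1 and Rhag, were higher in the KO in both pairs, with means of 6.85 and 6.92 against 5.64 and 5.63. Over all genes 0.407% were called higher in both pairs. WT signals of Car1 with LPS and XCL1 and of Rhag lay below the limit, and globin genes are not analysed here. Stromal and endothelial markers, 6 of 10, had means of 6.81 and 6.71 against 6.92 and 6.92, with the basement membrane gene Nid1 at -0.80 and -0.81, and 3 of the 6 were above 0 with LPS and XCL1 and 2 with LPS. The epithelial marker Epcam and the fibroblast marker Pdgfra were below the limit on every array.

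Most markers of cDC1 were past the limit. Of 13 cDC1 markers, 11 were past the limit, with means of 8.22 and 8.25 in the KO, against 8.52 and 8.45 in WT. In each pair 3 of these 11 were above 0 and 8 below. With LPS and XCL1, 2 were called lower, or 1 with centring, and with LPS 1 was. Over all genes 1.79% and 0.994% were called lower, without centring. Xcr1 was the 1 marker called in both pairs. Without Xcr1, the targeted gene, the means were 8.53 and 8.52 in the KO, against 8.65 and 8.66 in WT. Itgae, the cDC1 marker CD103, was below the limit on every array, and Clec9a is not analysed here. The 6 plasmacytoid markers had means of 8.36 and 8.31 against 8.63 and 8.59, with Ly6d at -1.22 and -0.35 and Spib at -0.47 and -0.66. In that list 4 genes were below 0 in both pairs and 2 above, with Bst2 at 0.78 and 0.30 and Tcf4 at 0.31 and 0.16. The part of these cell types in the values of Yes1 and Fgr was not tested.

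The genes whose 4 signals ran most like those of Yes1 were found by the Euclidean distance between profiles, each gene centred on its own mean over the 4 arrays. They were Scd1, a fatty acid desaturase (distance 0.10), the integrin subunit Itgb8 (0.17), Cd79b (0.19), the lysosomal enzyme Gusb (0.19) and Fcmr (0.20). Scd1 gave 6.94 and 6.79 in the KO, against 7.85 and 7.67 in WT, and Itgb8 gave 9.16 and 9.01 against 10.07 and 9.70. All 5 were called lower in the KO in both pairs, as the measure itself favours, although Itgb8 and Gusb were within 1.5-fold with LPS after centring, and Cd79b and Fcmr are also in the B cell list.

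The profiles most like that of Fgr belonged to Nanp, Smim27, Bora, Lrp11 and Fto, at distances of 0.13 to 0.14. All were lowest on the KO array with LPS, and Nanp and Smim27 were near or below the limit, with highest signals of 5.45 and 5.47. These 4 values per gene are a likeness over 4 arrays and no more.

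**Figure D5:**
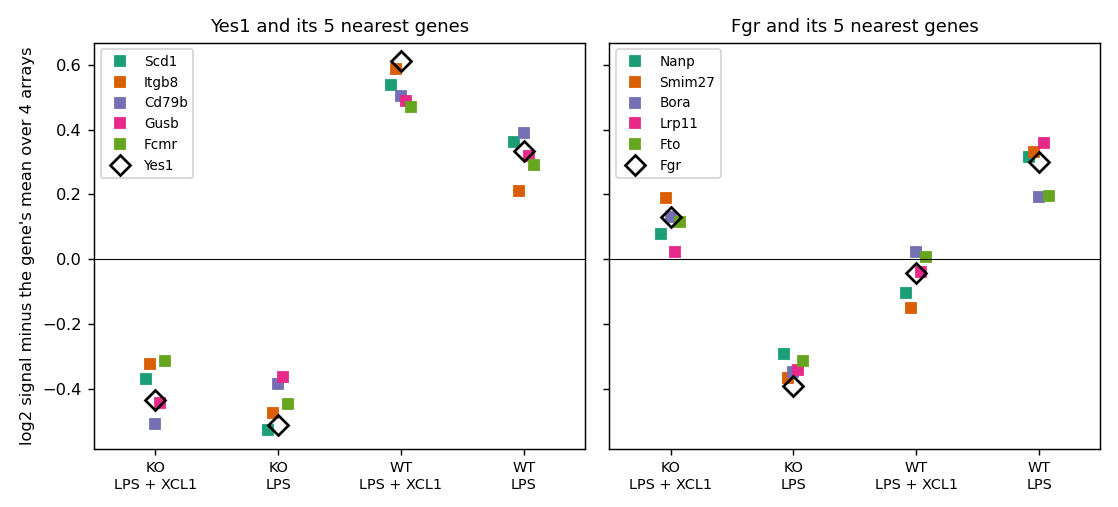
Log2 signal minus the gene's mean over the 4 arrays, for Yes1 (left) and Fgr (right, open diamonds) and their 5 nearest genes (coloured squares, offset sideways to be seen), with KO arrays to the left. The Yes1 group is low on both KO arrays, and the Fgr group is lowest on the KO array with LPS.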

How the data were processed

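TRIzol-extracted RNA was measured on MoGene-2_0-st arrays, per the labels' protocols. The authors deposited log2 RMA signals for gene-level probe sets, per the labels. RMA equalises the arrays, so a shift of most genes one way cannot be seen. The software was not given in the sources used here.

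Of 41345 probe sets, 23521 had 1 gene symbol in the platform annotation, 1814 several, and 16010 were unnamed here. RefSeq (GRCm38.p6) held 23328 of the single symbols by gene ID and changed 0. Left out were predicted genes, olfactory receptors, receptor gene segments and small RNAs, and the probe set with the highest mean stood for a gene. Of 17253 genes, 11065 reached the median of all values (5.43) on 1 array or more.

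Groups came from the sample titles, and each comparison is a difference between single arrays, or between 2 such differences. Nothing was tested. Named were all members, all other family members, genes of each list called in both genotype pairs or otherwise its 2 with the largest mean difference, and the 5 nearest profiles. Fcgr4, Clec7a, Itgam, Bst2, Tcf4, sex-linked genes and markers below the limit were named after their values were seen. Members, lists and thresholds were chosen with earlier results of these data known. The calling was tested on simulated data. Alternatives were a 2-fold threshold, no limit, a limit of 6.91, centring on gene medians, cyclic loess (limma 3.58.1 in R 4.3.3, span 0.7, 3 iterations), quantile normalization, the mean of probe sets, dim signals raised to the limit, and all genes kept. Other steps used Python 3.11.15, numpy 2.4.6 and pandas 2.3.3. Columns of other samples numbered 0.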

Additional observations from a re-analysis of the deposited data

Results flagged for a closer look

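Effects with opposite signs in the 2 genotypes, or in the 2 treatments, were looked for among the members at any size and among the other named genes from 1.5-fold. None of these differences was tested, and each rests on 1 array per group. For Fgr, XCL1 went with a higher signal in KO cells (0.52) and a lower one in WT cells (-0.34), and the WT effect minus the KO effect was -0.86. For Src, the KO minus WT difference was -0.12 with LPS and XCL1 and 0.04 with LPS, which differ by -0.15. Outside the members, the neutrophil gene S100a8 gave -0.85 for the WT effect minus the KO effect, and the targeted gene Xcr1 gave 1.21. Xcr1 lay below the limit in the KO with LPS and XCL1, and gave 0.88 with dim signals raised to the limit. The 5 genes picked for their likeness to Fgr have its opposite signs by construction, with -0.79 for Nanp, -1.04 for Smim27, -0.65 for Bora, -0.76 for Lrp11 and -0.62 for Fto.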

How the results depend on the processing

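Of 125 single differences of members under 5 ways of scaling or summarising, 125 kept their side of the 1.5-fold threshold. Each member had a single probe set and signals past the limit on all 4 arrays. The mean of probe sets and dim signals raised to the limit therefore returned the main values by construction. Yes1 ran from -1.04 to -0.94 with LPS and XCL1 and from -0.84 to -0.74 with LPS, and Fgr with LPS from -0.69 to -0.59, next to the threshold. Of 54 counts of members called, 51 kept within 1.5 times. Many of these could not move, because each member had a single probe set and passed both limits. That holds with no limit, the stricter limit, the mean of probe sets, dim signals raised and all genes kept. With a 2-fold threshold, 0 members were called for KO minus WT with LPS, in both pairs and for the difference between XCL1 effects, since fewer values pass it. Yes1 with LPS and XCL1 still passed. Counts of all genes moved by construction with the threshold and the limit. At 2-fold they were 42 with LPS and XCL1, 23 with LPS and 10 in both pairs for KO minus WT, 6 for XCL1 in KO, 2 in WT and 22 for the difference between XCL1 effects. With no limit they were 340 for KO minus WT with LPS, 214 for XCL1 in KO, 176 in WT and 727 for the XCL1 difference. With the stricter limit they were 194, 103, 26, 11 and 72 for KO minus WT with LPS and XCL1, with LPS, XCL1 in KO, in WT and the difference. With dim signals raised to the limit they were 66, 27 and 206 for the last 3 of these, and with all genes kept 183 and 96 for XCL1 in KO and in WT. For XCL1 in WT, higher and lower genes numbered 25 and 37, or 13 and 65 with centring and 30 and 28 with cyclic loess. For XCL1 in KO they numbered 52 and 60, or 26 and 88 with centring. Of the 5 genes nearest to Yes1, 4 remained with cyclic loess and 5 with quantile normalization, and of those nearest to Fgr, 2 and 3. No paired analysis was possible because the groups share fewer than 2 replicate numbers, and a fit over all 4 arrays that sets the genotypes against each other within each treatment was not run. Detection flags were not used here, so signal over background is unknown.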
